A study of Mus musculus with 4 samples.

Results

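The 500 p53 peaks described here are those with the largest gain of p53 binding in Ba/F3 cells after ionizing radiation (IR). The members were selected on their peak number alone, which orders the deposited list by the change in binding with IR, and peaks 1 to 500 were taken from a list that holds 6884 other peaks. Ba/F3, a murine pro-B line, depends on IL-3, and HPC7 is a murine line of multipotent hematopoietic progenitors. Chromatin immunoprecipitation with an antibody against p53 was sequenced for 3 groups of 1 library each, namely Ba/F3 without treatment, Ba/F3 harvested 3 h following 3 Gy, and HPC7 without treatment. All lines stably expressed a triple-FLAG-tagged murine MYSM1 protein, so that the untreated and irradiated cells carried the same transgene. A library for H3K27ac, a histone mark of active chromatin, from irradiated Ba/F3 cells was not used here.

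The list gives a position and a number for each peak, with no count, height or fold. The study's annotation of the peaks holds normalized read intensities, which were not used. The size of the gain and the depth behind it are therefore not described here. The gain is a ratio between single libraries and cannot be set against a spread between cultures. The members were compared with the 6141 other peaks that the study classed as increased in binding with IR (Group I). Shares carry 95% Wilson intervals, and differences between shares carry 95% Newcombe intervals. Both cover counting over peaks only, and they are not adjusted for the number of features compared. Gene names and positions are those of mouse build mm9.

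p53 is a transcription factor that is stabilized after DNA damage and activates genes of cell cycle arrest, apoptosis, DNA repair and metabolism. It binds as a tetramer to a pair of half-sites, each made of 3 purines, a core of the form CNNG with A or T at the inner positions, and 3 pyrimidines. The half-sites most often abut, and a spacer of up to 13 bases between them is part of the classical description of the site.

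The half-sites were searched within 100 bp of each peak centre, with at most 3 mismatches in the 20 positions and the C and G of both cores intact. The members with no mismatch are shown because they give the clearest view of the site forms in the set. There were 13 members with such a site and no spacer. In each line below, capitals mark bases that meet the consensus.

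Rank 120, chr13:52325680-52325699: GGACTTGCCTAAGCATGCCT
Rank 167, chr2:54150756-54150775: GGGCAAGTCCAAGCAAGCCC
Rank 199, chr13:60935252-60935271: GGGCAAGCCTAAACTTGTTC
Rank 205, chr7:30231185-30231204: AGGCTAGCCTGGGCAAGCTC
Rank 212, chr3:87213288-87213307: AAGCTAGTCCAAACTAGTCC
Rank 216, chr13:100541660-100541679: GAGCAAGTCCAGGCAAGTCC
Rank 235, chr10:23933299-23933318: GGGCAAGTTCAAACAAGTCC
Rank 253, chr7:74623538-74623557: GAACAAGCTCAGGCTAGCCC
Rank 292, chr5:140282421-140282440: AGGCTAGCCTGGGCTAGCCT
Rank 310, chr8:10200219-10200238: GGACTAGCTCAGGCAAGCTT
Rank 447, chr3:41217010-41217029: GAGCAAGTCCAGGCAAGCCT
Rank 459, chr14:35192462-35192481: GGGCTTGTTTAGACTTGTTC
Rank 488, chr13:84566736-84566755: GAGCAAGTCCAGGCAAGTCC

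Of the 26 half-sites in these 13 peaks, 18 had CAAG or its complement CTTG as core, 7 had CTAG and 1 had CATG. The CATG core belonged to the peak of rank 120. Ranks 167, 216, 235, 447 and 488 came from a family of peaks with similar sequence, described further on. Without them, CATG made up 1 of 16 half-sites in the members and 86 of 252 (34.1%) in the other Group I peaks with a perfect site.

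A further 15 members had a site with no mismatch only when a spacer was allowed, and 14 of them are shown to give the range of spacers. The spacer is in lower case. These lines were chosen after their values were seen.

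Rank 1, chr4:32978796-32978817: GGGCATGTCTctGGGCATGCCT
Rank 71, chr2:148314958-148314979: AGACATGCCCagGGACATGTCC
Rank 100, chr3:10278408-10278428: AGACATGTTTcAGACATGCTT
Rank 118, chr1:34916129-34916158: AGGCAAGTCTgtgggcctttGGGCAAGTCT
Rank 131, chr2:119566789-119566821: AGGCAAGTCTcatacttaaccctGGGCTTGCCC
Rank 132, chr7:149793968-149793995: AGACATGTCCtccaaggaAGACTAGTTC
Rank 217, chr16:49916035-49916056: AGACATGCCTtgAGGCTTGTCT
Rank 284, chr2:146397520-146397540: GGGCTTGTTCtGAACATGTCC
Rank 296, chr4:123581793-123581813: AAGCAAGCCCtGAACAAGCCC
Rank 378, chr7:118023295-118023315: GGGCATGCTTgGAACTTGTCT
Rank 388, chr7:152157427-152157456: GGACATGCTTcactctgccaGGGCATGCCC
Rank 394, chr5:46265923-46265943: AGGCTAGCTCtGGGCATGTTT
Rank 404, chr4:58955621-58955642: AGACATGCCTatGGGCATGCCT
Rank 484, chr4:125088331-125088351: GGACAAGCCCaGAGCATGTTC

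The spacer was 1 base in 6 of these 15 members and 2 bases in 4 of them. Here CATG was the most frequent core, with 18 of 30 half-sites, beside 87 of 152 (57.2%) in the other Group I peaks with a perfect spaced site outside the families. Among the perfect sites of the members, CATG was thus found mainly in the spaced form.

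Over all members, the p53 site without spacer was less frequent than in the rest of Group I. A site without spacer was present in 216 of the 500 members (43.2%, 95% interval 38.9 to 47.6) and in 3741 of the 6141 other Group I peaks (60.9%, 59.7 to 62.1). The difference was -17.7 percentage points (95% interval -22.2 to -13.2). In windows placed 10 kb upstream of the members, the same search found 1 site in 500 (0.200%).

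A spaced site and none without spacer was present in 155 members (31.0%, 27.1 to 35.2) and in 1114 other Group I peaks (18.1%, 17.2 to 19.1). The difference was 12.9 points (8.84 to 17.2). This class leaves out peaks with a site without spacer, so it is larger by construction where those are fewer. Among the peaks with no such site, 155 of 284 members (54.6%, 48.8 to 60.3) and 1114 of 2400 other peaks (46.4%, 44.4 to 48.4) had a spaced site, a difference of 8.16 points (2.01 to 14.2). Without 2 families of similar sequence, described further on, it was 8.12 points (1.94 to 14.2). The upstream windows of the members gave 9.60%, since 13 spacer lengths were allowed, so part of these sites is found by the search in any sequence. A half-site alone was found in 90 members (18%), in 13.8% of the other peaks and in 29.6% of the upstream windows. Peaks with a fuller site are left out of these shares.

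The remaining 39 members (7.80%, 5.76 to 10.5) had no half-site with at most 1 mismatch, against 7.10% of the other peaks. In all, 371 members (74.2%) had a site with or without spacer, against 79.1% of the other peaks, a difference of -4.86 points (-8.99 to -1.07).

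**Figure D1:**
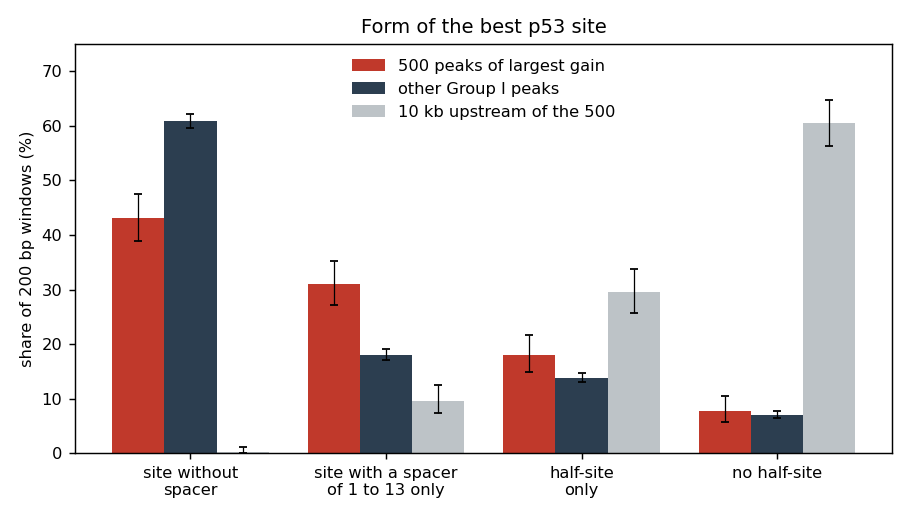
Share of 200 bp windows (y axis, percent) with each form of p53 site (x axis) in the 500 members, the other Group I peaks and the windows 10 kb upstream of the members. Bars give the share and error bars the 95% Wilson interval. The members had fewer sites without spacer (43.2% against 60.9%) and more sites that only a spacer allowed (31.0% against 18.1%), and the upstream windows mostly held no half-site (60.6%).

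With the families included, the shortfall of sites without spacer lay at the closest matches. Sites without spacer and with no mismatch were present in 2.60% of members and in 6.89% of the other Group I peaks, a difference of -4.29 points (-5.55 to -2.39). Sites with 1 mismatch were present in 9.80% and 20.4% (difference -10.6 points, -13.1 to -7.47). For 2 mismatches the shares were 16.6% and 18.7%, and for 3 mismatches they were 14.2% and 15.0%, and both intervals of the difference included 0. The site lay close to the peak centre in both sets, with a median distance of 12 bp between site midpoint and centre in the members and 9 bp in the others. Within 25 bp of the centre were 161 of the 216 members with a site (74.5%) and 84.0% of the other peaks with one.

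Group I held large families of peaks with similar sequence, and the members held few of the largest. The first family counted 1155 peaks in the whole list, of which 91.8% had a site without spacer, and the second counted 270 peaks, of which 93.0% had one. The first made up 5 members (1.00%) and 1134 other Group I peaks (18.5%). The second made up 22 members (4.40%) and 245 other peaks (3.99%). The comparisons of site form, core, location and short sequences were therefore repeated without their peaks, leaving 473 members and 4762 other Group I peaks.

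Without the families, the difference in sites without spacer was smaller and kept its direction. The site was present in 191 of 473 members (40.4%, 36.1 to 44.9) and in 2469 of 4762 others (51.8%, 50.4 to 53.3), a difference of -11.5 points (-16.0 to -6.77). The spaced site alone was present in 32.6% and 22.4% (difference 10.2 points, 5.93 to 14.7). The difference for sites of either form fell to -1.29 points (-5.65 to 2.72), with an interval that included 0. By closeness of the site without spacer, the difference was -0.955 points for no mismatch (-1.92 to 0.709), -3.86 points for 1 mismatch (-6.06 to -1.03), -2.87 points for 2 mismatches (-6.17 to 0.921) and -3.79 points for 3 mismatches (-6.91 to -0.139). The shortfall was thus of like size at 1, 2 and 3 mismatches, and the larger shortfall of close matches in the full set went with the families.

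**Figure D2:**
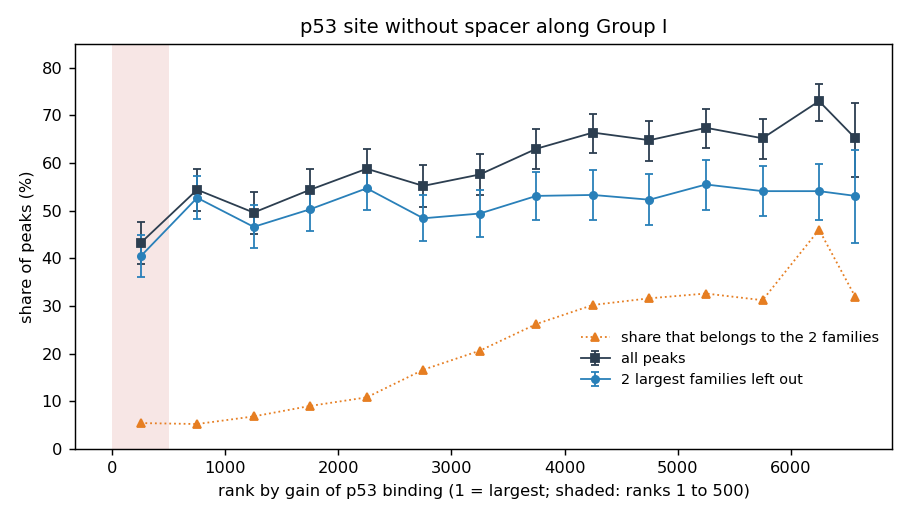
Share of peaks (y axis, percent) with a p53 site without spacer in successive bins of 500 ranks along Group I (x axis, rank by gain of p53 binding), for all peaks and without the 2 largest families, with 95% Wilson intervals, and the share of each bin that belongs to the families. The first bin, which holds the members, was the lowest on both lines (43.2% and 40.4%).

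Among the members, each 100 ranks held 40 to 46 sites without spacer, with no order by rank. The next 500 ranks had a site without spacer in 54.4% of peaks. Without the families, the later bins lay between 46.6% and 55.5%, and the intervals of 4 of them overlapped that of the members, namely ranks 1001 to 1500 (42.1 to 51.1), 2501 to 3000 (43.7 to 53.2), 3001 to 3500 (44.5 to 54.3) and the last, shorter bin (43.2 to 62.8). The all-peak line also climbed with the share of the families, which was 5.40% among the members and 46.0% at its highest.

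Among single spacer lengths, the spacer of 1 base was the most frequent in the members. Such a site was present in 89 members (17.8%, 14.7 to 21.4), in 638 other Group I peaks (10.4%, 9.65 to 11.2) and in 1.20% of the upstream windows of the members. The difference was 7.41 points (4.21 to 11.1), and without the families it was 5.44 points (2.04 to 9.31). In 64 of the 155 members with only a spaced site, the best site had this spacer. Among peaks with no site without spacer, a spacer of 1 base was present in 71 of 284 members and 499 of 2400 other peaks, and the interval of that difference included 0 (4.21 points, -0.760 to 9.78).

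With the families included, a spacer of 4 bases was less frequent in the members (7.20% against 12.4%, difference -5.21 points, -7.34 to -2.48), and without them the difference was 1.04 points (-1.12 to 3.83). Spacers of 10 and 11 bases were found in 11.6% and 10.0% of members. For the spacer of 10 bases the direction turned with the families. With them it was present in 14.3% of the other peaks (difference -2.68 points, -5.35 to 0.538), and without them in 10.4% of members and 6.32% of other peaks (difference 4.04 points, 1.50 to 7.18). Without the families, the spacer of 11 bases had 10.4% and 5.54% (difference 4.82 points, 2.29 to 7.95). The spacer of 2 bases had 7.19% and 4.64% (difference 2.55 points, 0.450 to 5.29). Without the families, 5 of the 13 lengths compared (1, 2, 10, 11 and 12 bases) had an interval above 0, with 2.89 points for the spacer of 12 bases (0.601 to 5.81), and the intervals of the other lengths included 0. A peak with several half-sites counts at several lengths.

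**Figure D3:**
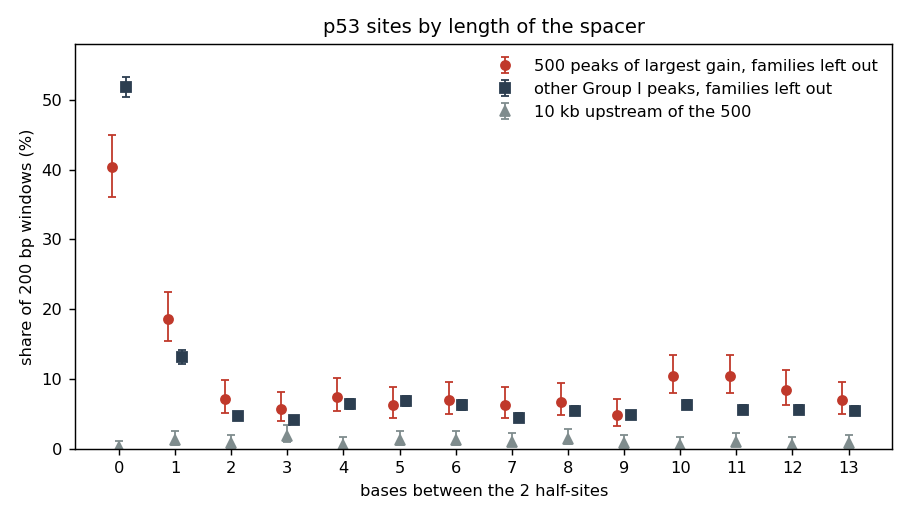
Share of 200 bp windows (y axis, percent) with a p53 site at each spacer length (x axis, bases between the half-sites) in the members and the other Group I peaks, both without the 2 largest families, and in windows 10 kb upstream of the members. Points give the share and error bars the 95% Wilson interval. Members were lower at spacer 0 (40.4% against 51.8%) and higher at spacer 1 (18.6% against 13.2%), and upstream windows stayed at or below 1.80%.

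The cores of the sites without spacer also differed. A CTAG core, which is less common in known p53 sites, was present in at least 1 of the paired half-sites in 13% of members with a site and in 5.56% of other peaks with one, a difference of 7.40 points (3.48 to 12.6). Without the families it was 6.48 points (2.01 to 12.3). CATG, the core of the strongest known p53 sites, was present in at least 1 half-site in 65.7% and 78.5% (difference -12.8 points, -19.4 to -6.61), and without the families the interval included 0 (difference -5.03 points, -11.9 to 1.03). CATG in both half-sites was present in 21.8% of members with a site and 24.8% of other peaks with one, with an interval of the difference that included 0 (difference -3.02 points, -8.20 to 3.10). Without the families, these shares were 24.6% and 37.2% (difference -12.6 points, -18.5 to -5.78). Over all half-sites without the families, CATG made up 48.7% (43.7 to 53.7) and 57.5% (56.1 to 58.9).

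Of the peaks of rank 1 to 10, 5 had a site without spacer, 4 had a spaced site only and 1 had neither, while 5 lay between genes, 4 in introns and 1 within 1 kb of a TSS. The peak of rank 1 is shown with its spaced site in capitals, and the peak of rank 3 because it had no half-site at all.

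Rank 1, chr4:32978742-32978841: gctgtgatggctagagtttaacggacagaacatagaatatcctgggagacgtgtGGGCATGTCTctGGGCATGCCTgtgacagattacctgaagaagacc
Rank 3, chr13:105398581-105398680: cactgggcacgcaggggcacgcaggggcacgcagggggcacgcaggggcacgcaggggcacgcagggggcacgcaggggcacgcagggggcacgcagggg

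Rank 1 lay in intron 1 of *Ankrd6*, a regulator of WNT signaling, and 870 bp from the start of the pseudogene *Gm11941*. Rank 2 lay in intron 5 of *Msi2*, an RNA-binding protein that maintains hematopoietic stem cells, 35189 bp from its nearest TSS, and had a site with a spacer of 6 bases and 2 mismatches. Rank 3, a tandem repeat, lay 163045 bp from the TSS of *Adamts6*. Rank 4 lay in intron 1 of *Dgka*, a diacylglycerol kinase, 1280 bp from the TSS, and had a spaced site with 3 mismatches.

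Rank 5 lay 24990 bp from *Tmem158* and rank 6 lay 6194 bp from *4930563D23Rik*, each with a site without spacer. Rank 7 lay in intron 4 of *Stk30*, rank 8 lay 35176 bp from *Ctsb*, which codes for the lysosomal protease cathepsin B, and rank 9 lay 23099 bp from *Camta1*, a transcription activator. Rank 10 lay in intron 5 of *Pknox2*, a homeobox factor, and had a site without spacer and 1 mismatch. The best match of these 10 peaks thus ranged from a perfect site to none.

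The peaks on either side of the limit of the rule are given as a description. Rank 500 (chr5:66493070-66493169) lay in intron 3 of *Rbm47*, 3701 bp from a TSS, with a site of 2 mismatches and a spacer of 4 bases. The next peak in rank (chr2:12147070-12147169) lay in intron 13 of *Itga8*, with a site of 2 mismatches and no spacer.

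Most members lay far from TSSs. Within 1 kb of a TSS were 60 members (12.0%, 9.44 to 15.1), against 12.0% of the other Group I peaks and 18.6% of the whole list. Introns held 210 members (42.0%, 37.8 to 46.4), intervals between genes held 211 (42.2%, 37.9 to 46.6), UTRs or noncoding exons held 13 and coding exons held 6. Compared with the other Group I peaks, the share in introns differed by 5.64 points (1.22 to 10.2) and the share between genes by -7.21 points (-11.6 to -2.66). Both differences shrank without the families, to 2.67 points (-1.95 to 7.38) and -1.65 points (-6.17 to 3.04), and their intervals then included 0. The median distance to a TSS was 13046 bp in the members and 13672 bp in the others.

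**Figure D4:**
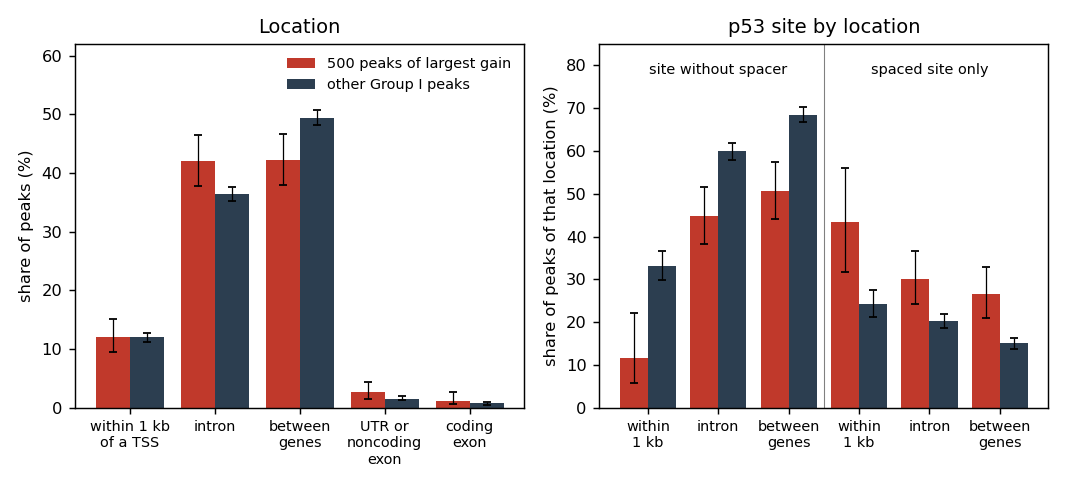
Left, share of peaks (y axis, percent) in each class of location (x axis) for the members and the other Group I peaks. Right, share of peaks of each location with a p53 site without spacer or with a spaced site only. Bars give the share and error bars the 95% Wilson interval, families included. Among members within 1 kb of a TSS, 11.7% had a site without spacer and 43.3% a spaced site only, against 33.2% and 24.3% in the other Group I peaks.

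Sites without spacer were also less frequent in the members near TSSs. Of the 60 proximal members, 7 had a site without spacer (11.7%, 5.77 to 22.2), against 244 of 734 proximal peaks in the rest of Group I (33.2%, 29.9 to 36.7), a difference of -21.6 points (-28.4 to -10.6). A spaced site only was present in 26 of them (43.3%, 31.6 to 55.9), against 24.3%, a difference of 19.1 points (6.89 to 32.0). The latter share is again larger where sites without spacer are fewer, and among proximal peaks with no such site it was 26 of 53 members (49.1%) and 178 of 490 others (36.3%), with an interval of the difference that included 0 (12.7 points, -0.914 to 26.4). Without the families, the difference was -19.8 points for the site without spacer (-26.7 to -8.77) and 18.4 points for the spaced site only (6.15 to 31.3). In introns the members had a site without spacer in 44.8% and the others in 59.9%, and between genes these shares were 50.7% and 68.5%. The differences of the 3 locations were not compared with each other.

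Of the proximal members, 53 were nearest to the start of a protein-coding gene and 7 to that of another kind of gene. Those with a site without spacer near a protein-coding gene were rank 49 at *4933407C03Rik* (829 bp), rank 171 at *Abhd4*, a lipase of N-acyl phospholipids (438 bp), rank 177 at *Rtkn* (719 bp), rank 351 at *Rin1*, a RAS effector (653 bp), and rank 452 at *Krtap3-2*, a keratin-associated protein (250 bp). Their sites had 2 or 3 mismatches, and the sites of the other 2 proximal members with such a site (ranks 328 and 414) had 2 mismatches each. Perfect spaced sites were present near *Mycbp*, the gene of a MYC-binding protein (rank 296, 263 bp), and near *Zkscan16*, a zinc finger factor (rank 404, 860 bp). These 2 genes were chosen after their values were seen.

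Few protein-coding genes had a member nearby. Within 10 kb of a TSS a member was present for 262 of 22225 genes (1.18%), and any peak of the list for 3473 genes (15.6%). Within 50 kb these shares were 3.91% and 40.5%. The genes were grouped into 5 lists of known p53 targets and 3 lists of hematopoietic genes, in which 209 genes were found in the annotation. The lists were drawn up with earlier results of these data known, so their counts describe the list of peaks and support no further statement.

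Of 103 target genes, 61 had some peak within 10 kb (59.2%, against 15.6% of all genes), and 2 had a member (1.94%, against 1.18%). Within 50 kb, 8 of them had a member (7.77%, against 3.91%). With 2 and 8 genes, these member counts are small and stand near the share over all genes at 10 kb. Each list held 19 to 42 genes, so a count of 0 or 1 member gene at 10 kb is no result about it. The peak nearest to the TSS had a median rank of 5363 in these 61 genes and of 4224 in all 3473 genes with a peak. It fell outside Group I in 20 of the 61 (32.8%) and in 24.0% of all genes with a peak. These ranks come from the values that chose the members and are given as a description.

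Of the genes of cell cycle arrest, 13 of 20 had a peak within 10 kb and none had a member. The peak nearest to *Cdkn1a*, the CDK inhibitor p21, lay 49 bp from a TSS at rank 6703, and that of *Ccng1*, cyclin G1, lay 156 bp away at rank 6644. The highest rank in this list was that of *Gadd45a*, a growth arrest gene, at 983. A member lay 42655 bp from *Cdkn1a* and another 25603 bp from *Btg2*, an antiproliferative gene. Both are shown because they carry spaced sites near classical targets, with the half-sites in capitals.

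Rank 356, near *Cdkn1a*, chr17:29277758-29277857: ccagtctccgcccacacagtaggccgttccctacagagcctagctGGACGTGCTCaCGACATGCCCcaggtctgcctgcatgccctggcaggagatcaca
Rank 62, near *Btg2*, chr1:136001251-136001350: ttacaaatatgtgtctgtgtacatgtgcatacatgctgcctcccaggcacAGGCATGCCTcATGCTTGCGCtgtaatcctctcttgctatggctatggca

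Each of these sites had a spacer of 1 base and 2 mismatches. Rank 356 lay in intron 3 of *Rab44* and rank 62 lay between genes, 4615 bp from *Gm8618*, so neither was nearest to the target.

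Of the genes of apoptosis, 15 of 24 had a peak within 10 kb and none had a member. The peaks nearest to *Bax* and *Bbc3*, which promote mitochondrial apoptosis, had ranks of 6512 and 6710. Members lay 37012 bp from *Siva1*, a proapoptotic gene (rank 306), 39321 bp from *Perp*, a p53 effector of the plasma membrane (rank 96), and 41362 bp from *Bcl2l11*, the gene of BIM. Rank 306 had a site of 2 mismatches and a spacer of 1 base, rank 96 had one of 3 mismatches and a spacer of 12 bases, and the peak near *Bcl2l11*, in intron 15 of *Acoxl*, had no half-site.

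Of the p53 family and its regulators, 11 of 19 genes had a peak and 1 had a member. The member was rank 85, at 5737 bp from *Siah1b*, a ubiquitin ligase, and it had a half-site only. A member lay 24048 bp from *Usp7*, the deubiquitinase of p53 and MDM2 (rank 381), also with a half-site only. The peak nearest to *Mdm2*, the main negative regulator of p53, lay 7 bp from a TSS at rank 4719.

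The genes of DNA repair had a peak in 10 of 20 cases, from rank 2972 onward. None of the 20 had a member within 50 kb, where 3.91% of all genes had one, so a count of 0 in 20 genes is no result about this list. Of the genes of metabolism and autophagy, 14 of 22 had a peak and 1 had a member, which was rank 384, at 4212 bp from *Gls2*, a glutaminase. It lay in a coding exon, 657 bp from the TSS of *Spryd4*, and had a half-site only.

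The 3 hematopoietic lists held 1 gene with a member within 10 kb, where 1.18% of all genes had one. Of 33 stem and progenitor transcription factors, 10 had a peak and 1 had a member. It was rank 153 in intron 3 of *Erg*, an ETS factor of hematopoietic stem cells, at 5096 bp from a TSS, and it had 2 half-sites and no site. Of 31 lymphoid genes, 8 had a peak within 10 kb and none a member, and rank 133 lay 48304 bp from *Prdm1*, the plasma cell factor BLIMP1. Of 42 genes of cytokine signaling, 11 had a peak and none a member. Rank 92 lay 20505 bp from *Socs2*, an inhibitor of cytokine signaling, with a site of 3 mismatches without spacer, and rank 456 lay 43053 bp from *Jak1*, a kinase of cytokine receptors, with a site of 1 mismatch without spacer.

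**Figure D5:**
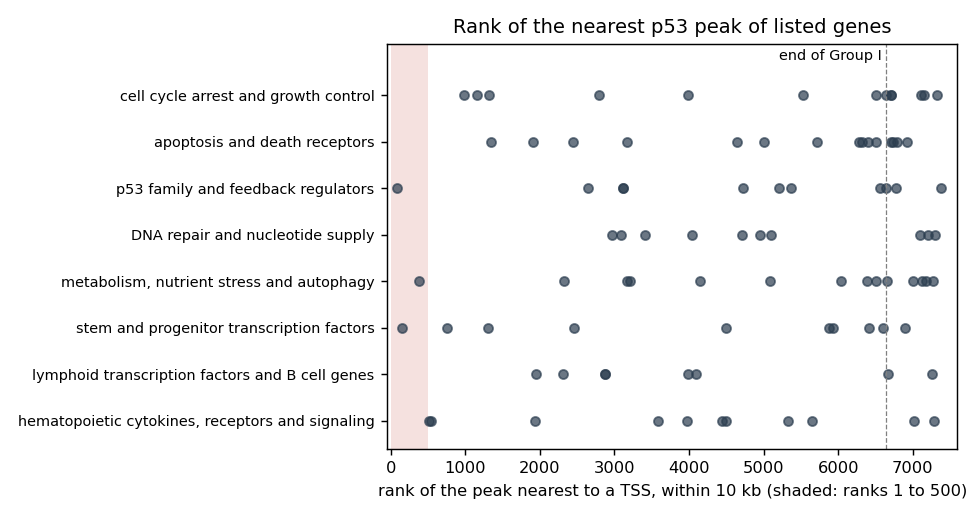
Rank of the peak nearest to a TSS within 10 kb (x axis, rank by gain of p53 binding) for each gene of the 8 lists (rows) that had a peak. Each point is a gene, the shaded band marks ranks 1 to 500, and the dashed line marks the end of Group I. The band holds *Siah1b*, *Gls2* and *Erg*, and the points of the p53 targets lie mostly at later ranks, with a median of 5363.

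Members were seldom neighbors. Within 50 kb of a TSS, 34 protein-coding genes had at least 2 members, and the most was 3, at *Tmem184a* and *Psmg3*. These were ranks 41, 141 and 292, of which rank 41 lay in a UTR or noncoding exon and rank 292 in intron 6 of *Tmem184a*, with the perfect site shown above. Ranks 41 and 292 also lay within 50 kb of a TSS of *Mafk*, a small MAF factor, and of *Ints1*, a subunit of the Integrator complex. Ranks 13 and 76 lay in intron 8 of *Cdcp1*, 928 bp apart, and within 50 kb of *Clec3b* and *Exosc7*. Ranks 20 and 213 lay near *1700016M24Rik*, and ranks 44 and 119 near *Prr5* and *Arhgap8*. Over all members, 67 had another peak of the list within 10 kb (13.4%, against 15.0% of the other Group I peaks), and 6 had one within 1 kb.

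Perfect sites without spacer lay far from genes in several members. Rank 120 lay 300495 bp from *Diras2*, rank 310 lay 72345 bp from *Myo16*, and rank 253 lay 101084 bp from *Lrrc28*. Others were closer, such as rank 459 in intron 1 of *Mmrn2*, 3760 bp from the TSS, rank 212, which lay 26458 bp from the Fc receptor-like gene *Fcrl5*, and rank 205 in intron 2 of *Sipa1l3*. Of the family peaks, rank 235 lay 10003 bp from *Moxd1*, rank 167 lay 137956 bp from *Galnt13* and rank 216 lay 128974 bp from *Cartpt*.

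The study marked each peak that was also found in HPC7 cells, and the marks of all members are held here. Such a mark was carried by 36 members (7.20%, 5.25 to 9.81). For later ranks the copy held here ends at rank 1956, and in its 1455 rows 210 peaks were marked (14.4%, 12.7 to 16.3). The share was 7.60% in ranks 1 to 250 and 6.80% in ranks 251 to 500, and it lay between 10.0% and 20.9% in the later steps of 250 ranks. The copy is shortened at a rank, so the rest of Group I could not be included, and no test was made. The HPC7 cells were untreated, while the rank sets irradiated against untreated Ba/F3 cells. A peak with little binding in untreated cells ranks high more easily, so these shares are not independent of the rule. The part of this in the marks was not tested.

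The marks were also counted by site form, family and location. Members with a site without spacer were marked in 13 of 216 cases (6.02%, 3.55 to 10.0), whereas later peaks with such a site were marked in 147 of 759 (19.4%, 16.7 to 22.3). Where no form of site was found, the shares were 7.75% in the members and 7.20% in the later peaks. Outside the families, 33 of 473 members were marked (6.98%) and 166 of 1354 later peaks (12.3%), while in the families 3 of 27 members and 44 of 101 later peaks were. Among the proximal members 1 of 60 was marked, at *H2-Ke2* (rank 365, 84 bp), against 13.2% of later proximal peaks. This peak, the perfect spaced sites of ranks 71 and 388, at 45667 bp from *Cd93* and 31661 bp from the cyclin D1 gene *Ccnd1*, and the tandem repeat of rank 3 were among those shared. Except for rank 3, these were chosen after their values were seen.

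Short consensus sequences of other factors were searched on both strands of the same windows, as exact matches. AP-1, with TGANTCA, was present in 6.80% of members, 14.3% of the other Group I peaks, 12.8% of all peaks and 5.80% of the upstream windows of the members. The difference of -7.48 points (-9.58 to -4.79) was not seen without the families, at 6.98% and 7.03% (difference -0.0581, -2.17 to 2.69). GATA, with AGATAA, went from a difference of -3.73 points (-6.46 to -0.465) to 0.834 points (-1.91 to 4.15).

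For the other sequences the interval of the difference included 0 with and without the families. The shares in the members were 15.6% for RUNX (TGTGGT), 7.80% for the ETS factor SPI1 (GAGGAAG), 5.60% for STAT5 (TTCNNNGAA), 5.20% for IRF (GAAANNGAA), 2.00% for the B cell factor EBF1 (CCCNNGGGA), 1.00% for SP1 (GGGGCGGGG) and 0.200% for PRDM14 (GGTCTCTAA). In the other Group I peaks these shares were 13.1%, 7.05%, 5.50%, 4.43%, 2.41%, 0.814% and 0.114% in the same order. In all peaks they were 12.9%, 7.04%, 5.42%, 4.40%, 2.72%, 4.13% and 0.122%. In the upstream windows of the members they were 18.6%, 4.40%, 5.60%, 7.80%, 3.00%, 0.800% and 0%. The study's de novo search found a PRDM14 motif enriched at Group I peaks. That measure is unlike the exact match counted here, and the shares cannot be set side by side. The GC content of the windows had a median of 49.0% in the members and 48.5% in the other Group I peaks, and its part in these results was not tested.

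The members were spread over the chromosomes except Y. Chromosome 10 held the most, 41, which was 10.9% of its peaks, and chromosome 11 held 40 (8.00%). The X chromosome held 11 (2.20% of members, against 2.64% of the other Group I peaks). On chromosomes 12 and 19 the members were 4.39% and 4.56% of the peaks, the lowest shares apart from Y. The share of chromosome 10 was the highest. Those of the remaining chromosomes, with chromosome 11 among them, lay between 4.90% and 9.12%. Chromosomes 10, 11, 12 and 19 were named after their values were seen. Their shares carry no interval, and differences between chromosomes were not tested.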

How the data were processed

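The authors mapped ChIP-Seq reads to mouse build mm9 with Bowtie 1.0.0 and called peaks with MACS 1.4.1 against input DNA, and deposited 1 list of 7384 p53 peaks, each 100 bp wide, with a number that was taken as the rank of the gain in binding. The deposited values are positions and numbers, with no counts, so depth is not described here. Replicate error is unknown, with 1 library per condition. Ranks 1 to 500 were the members, ranks 501 to 6641 the other Group I peaks, and the Group I limit is the study's. Members and gene lists were chosen with earlier results of these data known.

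Sequence and genes came from NCBIM37 (mm9) and GENCODE M1, whose positions match the deposited build. Centres were compared with the TSSs of all transcripts (proximal, 1 kb) and of protein-coding genes (10 kb and 50 kb). The p53 site was sought in 200 bp windows with at most 3 mismatches in 20 positions, both core C and G bases intact, and spacers of 0 to 13 bases, and half-sites with at most 1 mismatch in 10. The search was tested on simulated data with sites planted to its own definition, and all 4000 of 4000 were found. This checks the code only. Families of similar windows were joined by BLAST+ (word size 11, e-value 1e-10, at least 80% identity over 100 bp). HPC7 marks were read from the study's annotation of the peaks, of which 1955 rows are held here. Of the list entries, 2 were not found as separate protein-coding genes, namely *Gfi1* and *Pirh2*, an older name of *Rchy1*. Columns of read intensity and of the authors' comparisons in that annotation were not used.

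Named peaks were ranks 1 to 10, ranks 500 and 501, members with a perfect site without spacer and those nearest to named genes. Named genes were those nearest to ranks 1 to 10, listed genes with a member within 10 kb (50 kb where a list had fewer than 2), up to 10 genes with the most members within 50 kb, and up to 10 protein-coding genes with a member within 1 kb that had a site without spacer. Other genes in the text are the hosts or neighbors of these peaks, or examples of the ranks in a list. Alternatives were other limits of mismatch, window, distance and rank, protein-coding transcripts only, and the set without the 2 largest families. The tools were BLAST+ 2.17.0, samtools 1.23.1 and Python 3.11.15, with matplotlib 3.10.9 for figures, pysam 0.24.0 for sequence, and SciPy 1.17.1 and NumPy 2.4.6 for intervals.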

Additional observations from a re-analysis of the deposited data

How the results depend on the processing

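No paired analysis was possible because there was 1 library per condition, and no replicate could be left out. The share of members with a p53 site without spacer, 43.2%, was 29.0% with at most 2 mismatches, 55.4% with at most 4, 57.6% with no condition on the cores and 48.8% in ranks 1 to 1000. With at most 2 mismatches, the spaced site only was at 24.4% in place of 31.0%, and the site with a spacer of 1 base at 11.4% in place of 17.8%. A half-site alone was at 5.20% with no mismatch. The share within 1 kb of a TSS, 12.0%, was 19.4% within 2 kb and 30.2% within 5 kb. AP-1, at 6.80%, was at 0.800% in windows of 50 bp either side, and the cause was not tested. Genes with a member nearby numbered 156 within 5 kb, 869 within 50 kb and 1604 within 100 kb, and listed genes 1, 12 and 21. The other alternatives moved their result by less than its 95% interval, or a count by less than 1.5 times. The alternatives without families for the spaced forms and AP-1, the mismatch limit for the spacer of 1 base, the short window for AP-1, the shares among peaks with no site without spacer and the distance limits for the median rank were chosen after seeing the data.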
